A study of Mus musculus with 6 samples.

Results

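The goblet cell program was examined as 10 genes picked by name for their known roles. They comprise 4 secretory fate factors, Atoh1, Spdef, Gfi1 and Creb3l1, and 6 goblet cell products, Muc2, Tff3, Fcgbp, Clca1, Agr2 and Zg16. Of these 10, 9 had counts among the 24190 genes of the count table after Ensembl identifiers were matched to GENCODE symbols, and Muc2 was not analysed here. Near the detection floor, with fewer than 10 reads in every library, were 4 genes, Atoh1, Spdef, Gfi1 and Tff3. The other 5 passed the expression filter and were tested.

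RNA was sequenced from MTO54, a mouse tumor organoid (MTO) line made from a primary tumor of a genetically engineered mouse. The labels class MTO54 as an AKP colorectal cancer organoid, a genotype that the control and the treated cultures share. Single cells were seeded in basement membrane extract, and 2 days later 3 cultures received fresh complete stem cell medium (control) and 3 received the medium with Folfiri for 2 days. Folfiri combines 5FU, a fluoropyrimidine, at 50 μg/μl as the labels write the unit, with SN38, the active metabolite of the topoisomerase I inhibitor irinotecan, at 100 nM. One legend of the study gives a longer treatment. All 6 libraries come from a single organoid line, so the replicate spread holds no variation between tumors.

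Goblet cells secrete the mucus that covers the intestinal lining. Atoh1 commits progenitors to the secretory lineages when Notch signalling is low, and Gfi1 and Spdef act after it to steer cells to the goblet and Paneth fates. Creb3l1 is a membrane-bound transcription factor of the endoplasmic reticulum that promotes the last steps of goblet maturation. Muc2 is the main gel-forming mucin of the intestine, and its folding in the endoplasmic reticulum requires Agr2. Fcgbp, Clca1, Zg16 and Tff3 are released into the mucus with it. Colorectal tumors other than mucinous ones often hold few goblet cells.

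Reads on genes ranged from 22103591 to 28771207 in controls and from 26953969 to 30098210 after Folfiri. The floor was set at 3 reads, which equals 0.0910 to 0.154 CPM (library-size-scaled counts, with sizes adjusted by TMM) depending on the library. edgeR's quasi-likelihood test called 79.1% of the 14692 tested genes at an adjusted p under 0.05, 40.3% higher and 38.8% lower after Folfiri. Higher genes made up 51.0% of the calls with TMM and 63.3% with scaling by total counts only, under which the median over all tested genes moved from 0.02 to 0.30 on the log2 scale. A call alone therefore sets no gene apart here, and sizes are read against all tested genes. Control replicate 1 stood apart from the other controls, with a chi-square per degree of freedom over genes of 23.7 and 22.4 against 3.84 between those, and Folfiri replicate 3 less so (12.3 and 11.9 against 3.55). Without control replicate 1 the log2 fold changes of the 5 tested genes were -4.26 (Creb3l1), -2.28 (Fcgbp), 2.31 (Clca1), -2.97 (Agr2) and -2.38 (Zg16). Without Folfiri replicate 3 they were -4.41, -2.04, 2.41, -3.05 and -3.18 in the same order. All 5 calls held in both fits. The 8 epithelial markers summed to 5806 to 6804 CPM in controls and 4760 to 4938 CPM after Folfiri, led by Krt19. Of the 7 tested, 4 were called lower and 1 higher, with Epcam among the lower at 1250 CPM in controls and 653 CPM after Folfiri. Markers of other cell types ran from 0 reads up to mean control levels of 89.8 CPM (Cdh5), 49.6 CPM (Fn1) and 23.6 CPM (Cd68). Of the 10 immune markers, Tyrobp and Lyz2 had at most 2 reads in any library, whereas Ptprc had 7 to 13 reads in controls and 31 to 35 after Folfiri. The immune list summed to 28.1 to 32.1 CPM in controls and 33.8 to 36.4 CPM after Folfiri, mostly Cd68, and without Cd68 to 6.60 to 7.42 CPM and 13.8 to 15.3 CPM. Most of that rest was the single gene Cd14, with means of 6.31 CPM in controls and 12.8 CPM after Folfiri. The 8 fibroblast markers summed to 48.3 to 53.7 CPM and 33.1 to 36.8 CPM, nearly all Fn1, and without Fn1 to 1.08 to 1.44 CPM and 2.06 to 2.45 CPM, with Col1a2 and Col3a1 at 2 reads or fewer. Of the 4 tested fibroblast markers 2 were called higher (Dcn, Pdgfra) and 2 lower (Col1a1, Fn1). Dcn passed the filter through the Folfiri libraries alone and Col1a1 through the controls. The 4 endothelial markers summed to 72.3 to 124 CPM and 65.7 to 76.4 CPM, nearly all Cdh5, and without Cdh5 to 0.396 to 0.680 CPM and 0.704 to 0.758 CPM, with Kdr at 4 reads or fewer. The part of these markers in the results below was not tested.

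Among the fate factors, the upstream ones were barely detected in either group. Creb3l1 was clearly expressed in control MTOs and fell to 14 reads or fewer after Folfiri. Atoh1 had 3, 2 and 1 reads in the control libraries and 1, 1 and 5 after Folfiri. Spdef had 1, 1 and 0 reads in controls and 0, 0 and 3 after Folfiri. For both genes the groups overlapped, and no difference was detectable at this depth. The ratio of pooled counts, Folfiri over control, was 0.899 for Atoh1 (95% exact interval 0.259 to 3.24, counting error only). Spdef never exceeded 3 reads, so no fold is given for it.

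Gfi1, the zinc finger repressor downstream of Atoh1, had 2, 1 and 0 reads in controls and 6, 8 and 7 after Folfiri. Every treated library lay above every control, at counts too low for the expression filter. The ratio of pooled counts was 5.39 (95% exact interval 1.61 to 28.2, counting error only), and an exact two-sided permutation test of the CPM values gave p = 0.1, the smallest that 3 against 3 allows. Without the expression filter, edgeR called Gfi1 higher, at 2.29 ± 0.80 on the log2 scale (SE, adjusted p = 0.0142), whereas DESeq2's Wald test gave an adjusted p of 0.0614. Its level after Folfiri, 0.224 ± 0.0302 CPM (SD, n = 3), was still low. A gene on the opposite strand, A430072P03Rik, overlaps 101 bases of its exons, and the library kit does not mark strand.

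Creb3l1 (ENSMUSG00000027230, chromosome 2 of GRCm38 from 91982328 to 92024502, 12 exons) had 232, 161 and 125 reads in the control libraries. After Folfiri it had 14, 6 and 11. The lowest control library thus held many times the reads of the highest treated one, and the groups did not overlap. Mean control and treated levels were 7.07 ± 1.11 and 0.332 ± 0.138 CPM (SD, n = 3). On the log2 scale the change was -4.41 ± 0.25 (SE, edgeR adjusted p = 9.49e-08), or 21.2-fold lower. Only 0.225% of the tested genes had a lower log2 fold change. In bulk RNA, fewer cells that express a gene and less of its RNA per cell cannot be told apart, which holds for every member.

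**Figure D1:**
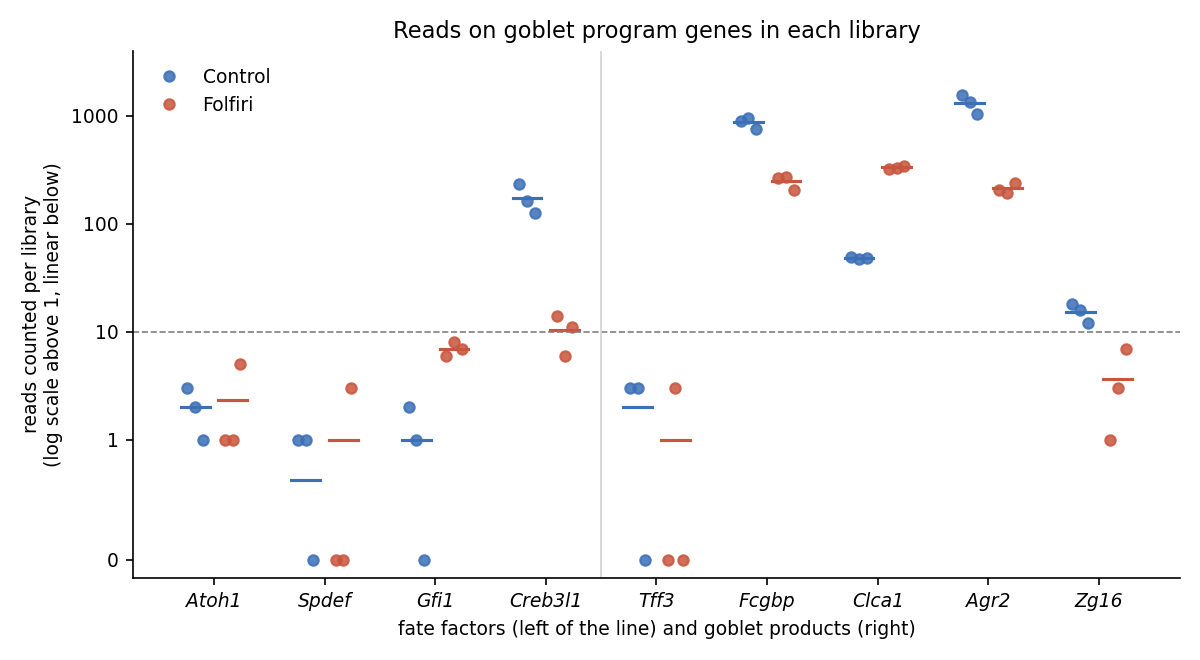
Reads per library on the 9 goblet program genes with counts, on a scale that is logarithmic above 1 and linear below, with 3 control (blue) and 3 Folfiri (red) libraries per gene, short lines at the group means and a dashed line at 10 reads. Atoh1, Spdef, Gfi1 and Tff3 stay under 10 reads in all 6 libraries, Creb3l1, Fcgbp, Agr2 and Zg16 are lower after Folfiri and Clca1 is higher.

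Of the other members of the Creb3 family, named here after their values were seen, Creb3l2 fell (log2 fold change -1.64, adjusted p = 2.46e-07 from edgeR) and Creb3 rose (1.17, adjusted p = 1.79e-06). Exons of Creb3 overlap Tln1 and Gba2 on the opposite strand. Creb3l4 fell as well, as given with the other fate regulators below. Creb3l3 had 7 to 16 reads and a log2 fold change of 0.06 (adjusted p = 0.888). Of the 5 genes of the family, Creb3l1 had the lowest log2 fold change.

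Of the goblet products, Agr2, Fcgbp and Zg16 fell after Folfiri and Clca1 rose. Tff3 was at the floor. Its 493 bases of exon had 3, 3 and 0 reads in controls and 0, 3 and 0 after Folfiri, and the groups overlapped. Tff3 encodes a small trefoil peptide that is a major product of normal goblet cells, and no fold is given for it.

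Agr2 (ENSMUSG00000020581, chromosome 12 from 35992907 to 36004087, 8 exons) is a disulfide isomerase of the endoplasmic reticulum. It had the most reads of the program in every control library, 1562, 1351 and 1028, against 206, 191 and 241 after Folfiri. The groups lay far apart with little spread within each. Mean levels were 54.4 ± 1.72 and 6.79 ± 0.582 CPM (SD, n = 3), 8.00-fold lower after treatment. The log2 change was -3.00 ± 0.09 (SE, edgeR adjusted p = 2.97e-09). Only 1.42% of the tested genes had a lower log2 fold change.

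Fcgbp (ENSMUSG00000047730, chromosome 7 from 28071236 to 28120862, 20 exons) is a large mucus protein with many repeats of the kind found in mucins. It had 891, 957 and 755 reads in controls and 267, 271 and 205 after Folfiri, again with no overlap. Untreated MTOs averaged 36.4 ± 3.74 CPM and treated ones 7.97 ± 1.52 CPM (SD, n = 3), 4.57-fold lower. The log2 change was -2.19 ± 0.14 (SE, edgeR adjusted p = 2.09e-07). Among the tested genes 3.78% had a lower log2 fold change. Of the 50-base stretches in its annotated transcripts, 6.42% also occur in other genes, B230219D22Rik and the related 9530053A07Rik. 9530053A07Rik, looked up after its sequence match was seen, had 68 to 89 reads in controls and 103 to 156 after Folfiri, a log2 fold change of 0.28 (adjusted p = 0.163 from edgeR). The counting could have split reads between Fcgbp and these genes.

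Zg16 (ENSMUSG00000049350, chromosome 7 from 127050156 to 127087328) is a small lectin that binds Gram-positive bacteria. It was weakly expressed, with 18, 16 and 12 reads in controls and 1, 3 and 7 after Folfiri. Each treated library lay below each control, and the gene passed the expression filter through the controls alone. Its log2 change was -2.40 ± 0.44 (SE, edgeR adjusted p = 0.000468). Without Folfiri replicate 3, which had the 7 reads, it was -3.18.

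The promoters of the pair of abundant products that fell, Fcgbp and Agr2, are shown for their sequence around motifs of the fate factors. The windows are the 250 bases before each RefSeq start site on GRCm38.p6, both on the plus strand, chr7:28070986-28071235 for Fcgbp and chr12:35992675-35992924 for Agr2. Capitals mark matches on either strand to CAGCTG, an E-box of the kind bound by Atoh1, to GGAT, the core preferred by Spdef, and to ACGTG, a core of sites bound by Creb3 family factors and Xbp1.
Fcgbp: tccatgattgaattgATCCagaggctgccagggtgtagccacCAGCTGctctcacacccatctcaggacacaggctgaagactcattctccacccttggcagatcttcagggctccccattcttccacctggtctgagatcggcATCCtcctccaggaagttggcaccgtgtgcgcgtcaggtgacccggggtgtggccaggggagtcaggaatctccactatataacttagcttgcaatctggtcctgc
Agr2: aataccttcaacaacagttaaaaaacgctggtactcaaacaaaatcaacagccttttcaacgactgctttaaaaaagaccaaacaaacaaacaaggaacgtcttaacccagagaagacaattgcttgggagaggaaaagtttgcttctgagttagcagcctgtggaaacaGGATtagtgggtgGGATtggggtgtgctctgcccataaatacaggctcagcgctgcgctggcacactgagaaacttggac
The Fcgbp window held 1 CAGCTG, starting at position -208, and 2 GGAT matches at -235 and -106, counted from -1 at the base before the start site. The Agr2 window held 2 GGAT matches, at -80 and -67, and none of the letters CAGCTG. Neither held ACGTG, and no matches overlapped. Of all 32851 windows of this length, 13% held CAGCTG, 74.1% GGAT and 16.6% ACGTG. These are matches of letters and were not read as binding.

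Clca1 went against the other 4 tested genes. Clca1 (ENSMUSG00000028255, chromosome 3 from 145003817 to 145032776, 14 exons) encodes a secreted metalloprotease of the mucus. It had 49, 47 and 48 reads in controls and 321, 330 and 346 after Folfiri. The 3 libraries of each group were close together and the groups did not overlap. Control libraries averaged 2.04 ± 0.377 CPM and treated ones 10.6 ± 0.134 CPM (SD, n = 3), 5.28-fold higher. The log2 change was 2.40 ± 0.15 (SE, edgeR adjusted p = 1.51e-07). Among the tested genes 95.8% had a lower log2 fold change. No 50-base stretch of its annotated transcripts occurs in another gene.

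Reads within a library show the shift of Clca1 relative to Agr2 and Fcgbp without any scaling, though not the direction of each gene alone. Control libraries held 31.9, 28.7 and 21.4 Agr2 reads per Clca1 read, and Folfiri libraries 0.642, 0.579 and 0.697. For Fcgbp the reads per Clca1 read were 18.2, 20.4 and 15.7 in controls and 0.832, 0.821 and 0.592 after Folfiri. In every treated library Clca1 thus had more reads than either of these genes, and in every control library far fewer. An exact two-sided permutation test of the log2 ratios gave p = 0.1 for each, the smallest possible.

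**Figure D2:**
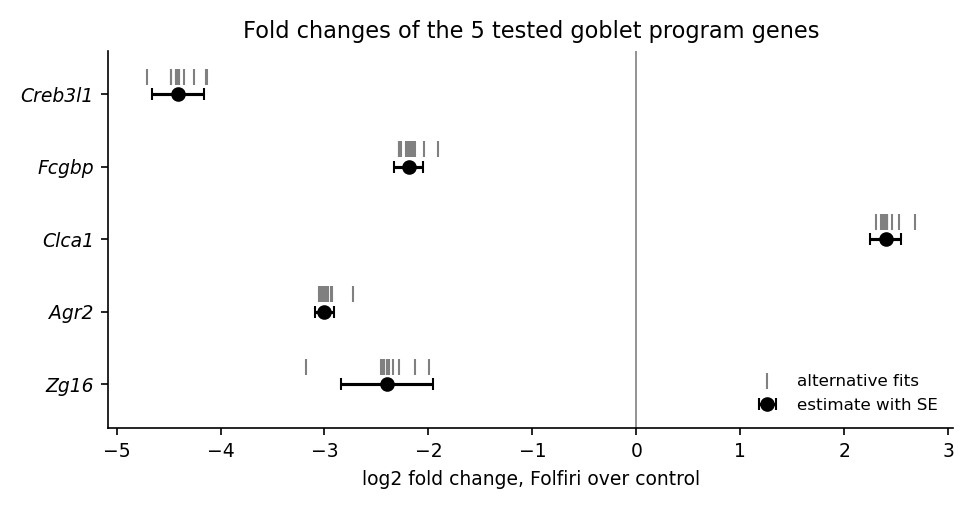
Log2 fold changes of the 5 tested genes, Folfiri over control, as points with standard errors, and the values of the alternative fits as grey ticks above them. Clca1 lies at 2.40 and the other 4 lie between -4.41 and -2.19, and no alternative fit crosses 0.

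Clca1 lies in a cluster of Clca genes. Of the 6 others, looked at after their values were seen, 5 were tested and all 5 were called higher by edgeR, as were 40.3% of all tested genes. The filter itself largely fixed this count, since 4 of the 5 passed it through the Folfiri libraries alone. Clca3b had 12 to 28 reads in controls and 910 to 1213 after Folfiri, and Clca3a2, which a gene on the opposite strand overlaps, had 0 reads in every control and 85 to 101 after Folfiri.

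Counts of the program are thus 1 higher and 4 lower of 5 tested genes, beside 79.1% of all tested genes called, 40.3% higher and 38.8% lower. Zg16, among the 4 lower, passed the filter through the controls alone, so the filter largely fixed its direction. The 5 are those with enough reads, not all 10. All 5 kept their side of the threshold in every alternative fit that tested them, although Zg16 was not tested once at least 1 CPM was asked of 3 samples. With scaling by total counts only, their log2 fold changes ran from -4.14 to 2.68.

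Per kilobase of exon, the order of the levels changed with treatment. In controls Agr2 stood first at 42.1 ± 1.33 CPM per kilobase (SD, n = 3). Fcgbp at 3.47 ± 0.356 and Creb3l1 at 2.72 ± 0.426 CPM per kilobase followed, and their libraries overlapped. Clca1 at 0.539 ± 0.0999 and Zg16 at 0.505 ± 0.0128 CPM per kilobase came last, and also overlapped. After Folfiri Agr2 was still first, at 5.26 ± 0.451 CPM per kilobase, and Clca1 came next, at 2.82 ± 0.0354. Fcgbp was at 0.760 ± 0.145, above Creb3l1 at 0.128 ± 0.0530 and Zg16 at 0.0909 ± 0.0721 CPM per kilobase, and the libraries of this last pair overlapped. Between neighbours elsewhere in either order, no libraries overlapped.

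**Figure D3:**
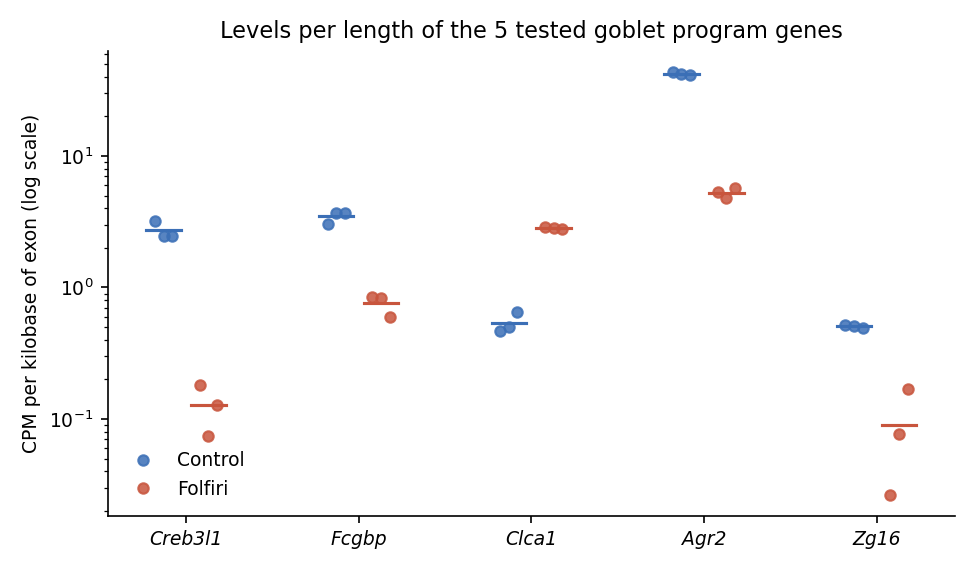
TMM-scaled CPM per kilobase of annotated exon, on a log axis, for the 5 tested genes in 3 control (blue) and 3 Folfiri (red) libraries, with lines at the group means. Agr2 is highest in both groups, at 42.1 and 5.26, and Clca1 goes from 0.539 to 2.82.

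Of the 14 other regulators of secretory fate, all tested, 10 were lower, 2 higher and 2 not called (edgeR), where 79.1% of all tested genes were called, 38.8% lower and 40.3% higher. The share called is thus near that of all genes. Their median log2 fold change was -0.65 against 0.02 for all tested genes, and -0.37 against 0.30 with total counts only. Xbp1, the unfolded protein response factor that secretory cells depend on, had 2759, 2122 and 1621 reads in controls and 817, 772 and 919 after Folfiri, with a log2 fold change of -1.74. Cdx2, the intestinal identity factor, changed by -1.53 and Creb3l4 by -1.35. Dll4, a Notch ligand, fell by 2.56 on the log2 scale and passed the filter through the controls. The pair that rose were low in controls and passed the filter through the Folfiri libraries. Dll1, the Notch ligand of secretory progenitors, had 2, 6 and 2 reads in controls and 47, 44 and 52 after Folfiri, a log2 fold change of 3.42 that was 4.09 without control replicate 2. Bhlha15, a basic helix-loop-helix factor of secretory cells, had 10, 6 and 4 reads and then 42, 33 and 35, a log2 fold change of 2.07. Genes on the opposite strand overlap exons of Dll1 and Dll4.

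The 20 other goblet products and markers also held genes in both directions. Of these 12 were tested, 7 were lower, 3 higher and 2 not called (edgeR), and 4 of the 12 passed the filter through 1 group. The share called is again near the 79.1% of all tested genes, of which 38.8% were lower and 40.3% higher. The median log2 fold change of -0.70 moved with the processing, to -0.43 with total counts only, -0.40 without the filter, -0.39 with DESeq2 and -1.22 with at least 1 CPM in 3 samples. Near the floor were 7 of the 20, Retnlb, Ang4, Spink4, Muc5ac, Muc5b, Mptx1 and Capn9. Atp2a3, a calcium pump of the endoplasmic reticulum, averaged 139 ± 6.00 CPM without and 6.37 ± 0.0765 CPM with Folfiri (SD, n = 3), at a log2 fold change of -4.44. Reg4, a secreted lectin, had 94, 47 and 40 reads in controls and 4, 6 and 11 after Folfiri, a log2 fold change of -3.44. The transporter Slc12a8 and the ferlin Fer1l6 had log2 fold changes of -2.95 and -2.11. In the other direction, Best2, a bestrophin anion channel of colonic goblet cells, had 1, 0 and 1 reads in controls and 50, 52 and 37 after Folfiri. Its ratio of pooled counts was 53.5 (95% exact interval 14.5 to 446, counting error only). Best2 passed the filter through the Folfiri libraries alone, and Reg4 and Slc12a8 passed it through the controls. Sytl2, a tether of secretory granules, rose by a log2 fold change of 0.60 (adjusted p = 0.0078 from edgeR).

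Genes that assemble and glycosylate mucins showed no common direction. Of all tested genes 79.1% were called, 38.8% lower and 40.3% higher. Of the 22 genes in this list, 15 were tested, 6 lower, 4 higher and 5 not called (edgeR). Their median log2 fold change was 0.02. With scaling by total counts only, 3 were lower and 6 higher. Ern2, the stress sensor of the endoplasmic reticulum found in mucus-secreting epithelium, had 337, 261 and 211 reads in controls and 54, 59 and 60 after Folfiri, a log2 fold change of -2.59, the largest in size of the 15. The initiating transferase Galnt7 fell by 1.19 and the chain-extending B3gnt3 by 1.09 on the log2 scale. Galnt12 changed by -0.40, and by -0.13 with total counts only, where it was no longer called. Gcnt1, which makes branched glycans, had 110, 69 and 62 reads in controls and 344, 479 and 332 after Folfiri, a log2 fold change of 1.89. Tgm2, a transglutaminase, rose by 0.56, Gcnt3, the branching enzyme of mucins, by 0.43 and Vamp8, a vesicle protein of goblet cell secretion, by 0.34. Genes on the opposite strand overlap exons of Galnt7 and Tgm2.

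Markers of the other intestinal lineages were compared for scale. None of the 8 enteroendocrine markers was tested, and 6 of them were near the floor, among them Neurog3 with at most 1 read. Of the 6 tuft markers 3 were near the floor and 3 were tested. Avil was lower by 0.22 on the log2 scale, and at 0.05 with total counts only, and Pou2f3, named after its values were seen, had 3 to 9 reads in controls and 12 to 19 after Folfiri, passing the filter through the Folfiri libraries alone. Of the 5 Paneth markers 3 were tested and all 3 were called lower, as were 38.8% of all tested genes, Pla2g2a by a log2 fold change of -1.97, Itln1 by -0.72 and Mmp7 by -0.69. The Mmp7 call was lost with total counts only, at -0.41. Exons of Mmp7 and Avil overlap genes on the opposite strand. Of the 8 absorptive markers 4 were tested. Fabp2, a fatty acid binding protein of enterocytes, had 15, 15 and 14 reads in controls and 45, 50 and 65 after Folfiri, a log2 fold change of 1.47. Aqp8, named after its values were seen, had 0 to 4 reads and then 14 to 21, and passed the filter through the Folfiri libraries alone. Krt20 had a log2 fold change of -0.13 (adjusted p = 0.562 from edgeR). Differences between the lists were not tested.

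**Figure D4:**
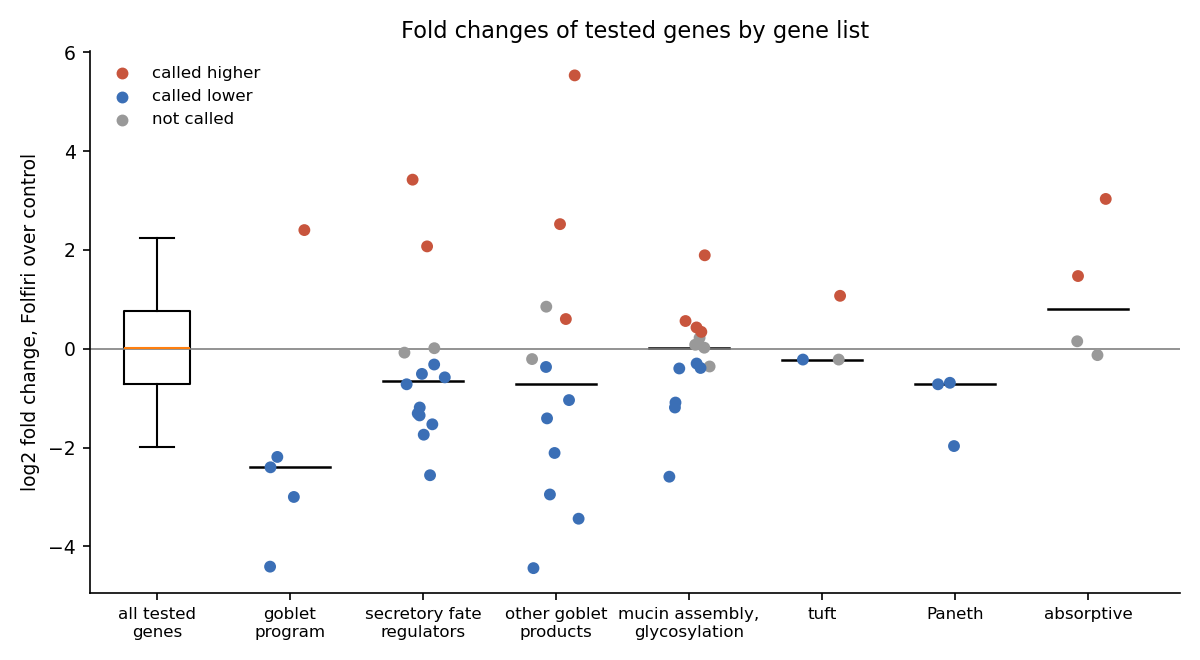
Log2 fold changes of the tested genes in each list, Folfiri over control, colored by call (red higher, blue lower, grey not called), with black lines at the list medians and a box for all tested genes (median 0.02, quartiles -0.70 and 0.76, whiskers at the 5th and 95th percentiles, -1.99 and 2.23). All 5 goblet program genes lie beyond the whiskers, 4 below and Clca1 above, and the lists of fate regulators and other goblet products hold genes on both sides.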

How the data were processed

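The deposited file holds raw read counts per gene for 6 libraries. The authors prepared poly(A) libraries, aligned reads with STAR 2.5.2 to the mouse genome (GRCm38) with GENCODE vM25 and counted them with Rsubread. The strand setting and the treatment of reads with several positions are not given in the sources used here. Every listed gene has at least 1 count. Samples were grouped by their titles. The altered genes of the line are not reported here.

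Symbols, positions and exon lengths came from GENCODE vM21, on the same build, which names 24124 of the 24190 identifiers. Counts were tested with edgeR 4.0.16 in R 4.3.3 (filterByExpr, TMM, quasi-likelihood, Benjamini-Hochberg over all 14692 tested genes, threshold 0.05). CPM values use TMM-scaled library sizes over tested genes. Alternatives were 7 other scalings, filters and models, DESeq2 1.42.0 among them, and 6 fits without 1 library. The procedure was tested on simulated data.

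Besides the 10 genes, up to 4 genes per direction and list were named, those with the largest log2 fold change among called genes with separate groups and a mean of at least 1 CPM in 1 group. Of each cell type list the most abundant marker was named. Any other gene named was chosen after its values were seen. The members and lists were chosen with earlier results of these data known. The study calls the replicates biological. Where they share a culture, p-values measure only technical spread. Counts of replicates differed by more than sampling noise (chi-square per degree of freedom 3.55 to 23.7). Intervals cover counting error only.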

Additional observations from a re-analysis of the deposited data

How the results depend on the processing

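Across the 7 other settings and the 6 fits without 1 library, all planned, Agr2 stayed between -3.05 and -2.73 on the log2 scale, Clca1 between 2.31 and 2.68, Creb3l1 between -4.71 and -4.13, Fcgbp between -2.28 and -1.91 and Zg16 between -3.18 and -1.99, each still called wherever it was tested. Members called higher were 2 in place of 1 without the expression filter, which adds Gfi1. The number of genes called ranged from 11021 to 12312 without 1 library and was 11499 with the replicate number as a block, where members called stayed at 1 higher and 4 lower. The replicate numbers did not pair the samples, since deviations of same-numbered libraries correlated at 0.0394, -0.193 and 0.0432. A threshold of 30 in place of 10 reads would place 5 members near the floor in place of 4.

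In the other lists, total counts only gave 3 mucin assembly genes lower in place of 6 and 6 higher in place of 4, left 0 tuft markers lower in place of 1 and turned Avil to 0.05. Upper quartile scaling also left 0 tuft markers lower. Without the filter, 1 enteroendocrine marker (Chgb) and 2 tuft markers (Pou2f3 and Dclk1) were higher and 2 tuft markers (Avil and Gfi1b) lower, and DESeq2's Wald test gave 2 tuft markers lower as well. With at least 1 CPM in 3 samples, 0 tuft markers and 1 absorptive marker were higher, since fewer genes were tested. Tuft markers called ranged from 0 to 1 in each direction without 1 library, with the higher call lost without control replicate 2, control replicate 3 or Folfiri replicate 2, and the lower call lost without Folfiri replicate 2. The cause was not tested for the scalings. Depth limits Atoh1, Spdef, Gfi1 and Tff3, whose counts could hide changes of several fold.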
